A study of Mus musculus with 15 samples.

Results

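Growth-factor genes studied in running and enriched rodents, 10 in number, were followed across the deposited methylation table of the mouse dentate gyrus: the ligands Igf1, Vegfa, Vegfb and Fgf2, the receptors Igf1r, Insr, Flt1 and Kdr, and the receptor adaptors Irs1 and Irs2. All CpG measurements inside these 10 genes or within 5 kb of them were taken, which gave 339 of the 455836 CpG rows of the table. A row is the cytosine of a CpG on 1 DNA strand, and its value in a mouse is the percentage of reads that kept a C after bisulfite treatment. Reduced representation bisulfite sequencing (RRBS), the assay used, reads the CpG-rich fragments that a restriction enzyme releases, so most CpGs of a long gene were not measured.

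The 15 animals were female C57BL/6JRj mice aged 7.5 months, 5 in each of 3 housing groups, and the hippocampal dentate gyrus was dissected from each. The standard group spent 6 months in standard cages and the enriched group spent 6 months in an enriched environment. The withdrawal group had 3 months of enrichment followed by 3 months of standard cages. No genotype, drug or other treatment is named in the labels, and each library carries its own mouse number.

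Insulin-like growth factor and insulin bind related receptor tyrosine kinases, Igf1r and Insr, which pass the signal through the docking proteins Irs1 and Irs2 to the kinase cascade that drives cell growth and survival. Vegfa signals to blood vessels mainly through Kdr, while Flt1 binds Vegfa and Vegfb tightly and, in its soluble form, holds Vegfa away from Kdr. Fgf2 is a mitogen of neural precursor cells. In the hippocampus, circulating insulin-like growth factor and VEGF are known for their part in the growth of new granule neurons that follows running.

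The rows were spread unevenly over the genes. Flt1 held 83 rows, Igf1r 79, Irs2 38, Vegfb 33, Irs1 32, Vegfa 28, Kdr 26, Insr 10, Fgf2 9 and Igf1 only 1. Of the 339 rows, 57 had a value in all 15 mice, and no row had values in fewer than 9. The libraries covered the rows unequally: standard mouse 1 had a value at 184 rows (54.3%), and withdrawal mouse 4 had the most, 332 rows (97.9%). The table gives percentages without read counts, so the depth behind each value is unknown and no counting interval can be given.

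The measured CpGs of 2 gene starts are shown here because 1 Igf1r row and 1 run of Flt1 rows described further on lie in them. Each line is the 250 bases before the start in the gene's RefSeq promoter entry (GRCm38), written 5′ to 3′ on the gene's own strand. The CpGs that had a row are in capitals. The Flt1 window lies inside the bounds used for that gene, chr5:147561604-147726438.
Igf1r, chr7:67952007-67952256, plus strand: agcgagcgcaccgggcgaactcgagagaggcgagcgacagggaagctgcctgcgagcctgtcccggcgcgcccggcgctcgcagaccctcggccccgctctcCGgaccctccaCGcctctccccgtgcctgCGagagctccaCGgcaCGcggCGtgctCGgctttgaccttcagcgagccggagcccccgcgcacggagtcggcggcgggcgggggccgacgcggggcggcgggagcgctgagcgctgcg
Flt1, chr5:147726012-147726261, minus strand: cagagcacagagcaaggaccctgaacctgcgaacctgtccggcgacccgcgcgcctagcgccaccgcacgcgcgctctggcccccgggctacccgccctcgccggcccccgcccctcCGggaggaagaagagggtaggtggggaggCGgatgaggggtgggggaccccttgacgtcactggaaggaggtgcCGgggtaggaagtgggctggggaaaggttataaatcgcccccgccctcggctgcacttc
The Igf1r window held 7 measured rows and the Flt1 window 3. The GC box letters GGGCGG, searched on both strands, occurred 2 times in the Igf1r window (forward, from bases 208 and 225, counted from 1 at the 5′ end) and 3 times in the Flt1 window (reverse, from bases 93, 109 and 232). The Flt1 window also held the cAMP response core TGACG forward at base 170 and reverse at base 173, which overlap. Of 32851 RefSeq promoters, 32.7% held GGGCGG and 17.8% held TGACG in the same 250 bases. Neither window held the hypoxia response core ACGTG (16.6% of promoters) or the FoxO letters TGTTTAC (3.17%).

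The starts of the genes were nearly free of methylation. Within 1 kb of a RefSeq start lay 128 rows of 6 genes, and 126 of them (98.4%) had a mean over the 3 groups under 20%, beside 94.2% of the 125817 such rows of all genes. Of these start rows, 20 of 35 at Igf1r, 11 of 17 at Irs2, 11 of 35 at Flt1, 5 of 19 at Irs1, 5 of 13 at Vegfa and 3 of 9 at Kdr were at 0% in every mouse with a value. Insr was not matched to a promoter entry. The 5 rows within 1 kb of the upper end of that gene (chr8:3150922-3279649) had means from 0% to 2.78%.

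The 2 exceptions at the starts were an Igf1r row and a Kdr row. The Igf1r row, chr7:67952109 on the plus strand, is the first capital CG of the Igf1r line above and lies 148 bases before the start. It was at 23.1, 63.6 and 31.6% in 3 standard mice, at 18.5, 0 and 20% in 3 enriched mice and at 4.35, 18.2, 30 and 50% in 4 withdrawal mice. Every standard value lay above every enriched value, and the withdrawal mice spanned both. The other 6 rows of that window, 92 to 137 bases before the start, were at 0% in all 10 mice that had a value. The enriched minus standard difference was -26.6 ± 15.6 points (standard error), with a limma adjusted p of 0.892, and -14.5 points without standard mouse 4.

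The Kdr row, chr5:75979338 on the minus strand, lies 883 bases before the start. It was at 54.5, 52.2, 60.0, 66.7 and 56.5% in the standard mice, a narrow band. The 3 enriched mice with a value were at 58.3, 16.7 and 20%, and the withdrawal mice at 0, 25, 81.8, 30.8 and 33.3%. The enriched group was thus lower by 26.3 points on average and the withdrawal group by 23.8, but both overlapped the standard mice (limma adjusted p 0.892 and 0.911). The other 8 rows at the Kdr start had means of at most 5.66%.

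**Figure D1:**
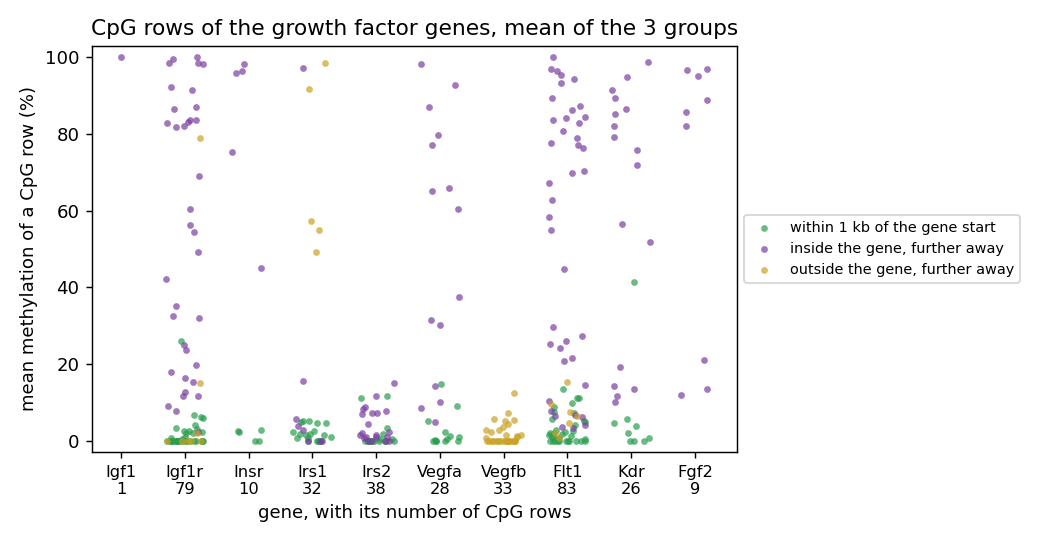
Mean methylation (percent, y axis) of each of the 339 rows, by gene (x axis), with rows within 1 kb of a gene start set apart from rows further inside or outside the gene. The start rows lie under 20% apart from 2, while rows further inside every gene but Irs2 and Vegfb reach above 80%.

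Further inside the genes the levels were mixed, and the medians of the 2 adaptors lay under those of the receptors. Of 153 rows inside a gene but over 1 kb from its start, 58 (37.9%) were under 20% on average, 45 (29.4%) at intermediate levels and 50 (32.7%) over 80%; over all genes these shares were 43.9, 22.2 and 33.9%. The median such row was at 55.3% in Igf1r (36 rows), 95.9% in Insr (5 rows), 67.3% in Flt1 (41 rows), 75.9% in Kdr (17 rows), 60.6% in Vegfa (15 rows) and 85.8% in Fgf2 (9 rows). In Irs2 all 21 such rows were under 20%, with a median of 2.08% and a highest mean of 14.9%. In Irs1 7 of 8 were under 20%, with a median of 3.27%, while the 5 rows outside that gene and over 1 kb from its start had means from 49.1 to 98.7%. The single Igf1 row, chr10:87875850 on the minus strand inside the gene, was at 100% in all 14 mice with a value. The order of these medians was not tested, since rows of 1 gene share fragments and mice. The rows were also not matched between genes for distance from the start.

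The Vegfb rows say little of that gene. None of the 33 lay inside Vegfb (chr19:6982472-6987651) or within 1 kb of its start. Of them, 27 lay within 1 kb of the start of Fkbp2 and 6 within 1 kb of the start of Dnajc4, both neighbours. They were at most at 12.4%, and 18 were at 0% in every mouse with a value.

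No row of the 10 genes passed the test between any pair of housing groups. limma was fitted to 350663 rows on a log ratio scale, with Benjamini-Hochberg adjustment over all of them and a call at an adjusted p under 0.05. Across all genes, 0 rows (0%) were called in each of the 3 comparisons, so the 0 of 244 tested member rows are at the background. At an unadjusted p under 0.05, enriched against standard housing gave 11 member rows (4.51%), 4 higher and 7 lower, beside 4.67% of all rows. Withdrawal against standard housing gave 14 member rows (5.74%), 11 higher and 3 lower, beside 4.3% of all rows. Withdrawal against enriched gave 16 (6.56%), 12 higher and 4 lower, beside 4.18%. The first 2 comparisons share the standard mice and the last shares mice with both.

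Rows where all mice of one group lay above all mice of the other were few. Enriched against standard had 2 of 244 (0.820%; all rows 1.22%), withdrawal against standard 2 (0.820%; all rows 1.11%), and withdrawal against enriched 5 (2.05%; all rows 1.11%). The remaining 95 member rows varied by under 5 points over the mice and were not tested, and 90 of them had the same value in every mouse.

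A gene's mean was taken over its rows with a value in all 15 mice, which left Igf1r, Irs1, Vegfa, Flt1 and Kdr with at least 3 such rows. Across the genome 9267 gene regions were fitted and 0 (0%) passed for any pair of groups. The shares of all regions whose unadjusted p was under 0.05 were 5.94, 5.13 and 4.61% for enriched minus standard, withdrawal minus standard and withdrawal minus enriched, and 0, 1 and 1 of the 5 member regions. The tissue is a mixture of cells, so a shift in the share of a cell type and a shift within cells cannot be told apart in any of these values.

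Among the ligands, the Vegfa mean (3 rows) was at 10.1, 8.56, 6.67, 0 and 1.20% in the standard mice, and at 2.90, 2.56, 14.5, 4.09 and 13.2% in the enriched mice. The withdrawal mice were at 9.98, 13.2, 25.1, 22.8 and 2.99%. The withdrawal mice 3 and 4 lay above all other animals, and mouse 5 lay among the standard mice. The withdrawal group was 9.49 ± 3.97 points above standard housing (limma p 0.0411 unadjusted, 0.963 adjusted). These 3 rows form 1 stretch of 55 bases on the minus strand, chr17:46018236-46018290, so the mean stands for that stretch and not for the gene. On the plus strand, the 5 rows of chr17:46018289-46018364 overlap it only at the edge. They averaged 43.9, 52.7 and 42.7% in the standard, enriched and withdrawal mice, and withdrawal minus standard was -1.27 ± 9.80 points. Fitted among the blocks of rows described further on, the same values had a limma p of 0.0570 unadjusted and 0.944 adjusted. Over all 28 Vegfa rows, each centred as described further on, that difference was 1.56 ± 2.32 points.

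Among the receptors, the Igf1r mean (6 rows) was at 14.6, 14.9, 13.8, 15.7 and 21.0% in the standard mice. It was at 23.3, 9.03, 10.8, 14.1 and 13.7% in the enriched mice and at 18.3, 21.1, 22.8, 16.9 and 17.5% in the withdrawal mice. All withdrawal mice lay above 4 of the 5 enriched mice, and enriched mouse 1 was the highest animal of all. Withdrawal minus enriched was 5.15 ± 2.38 points (limma p 0.0363 unadjusted, 0.989 adjusted). Over all 79 Igf1r rows, centred, it was 0.65 ± 1.63 points.

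No call was made at the VEGF receptors. Flt1, with 33 rows the best covered member, was at 24.8 to 28.1% in the standard mice, 22.7 to 26.8% in the enriched and 24.0 to 28.0% in the withdrawal mice. Its differences were -1.29, -0.77 and 0.51 points for enriched minus standard, withdrawal minus standard and withdrawal minus enriched, each ± 1.34. The Kdr mean (4 rows) was at 85.9 to 100%, 81.0 to 100% and 82.8 to 100% in the standard, enriched and withdrawal mice, with differences of -1.98, 0.36 and 2.34 points in the same order, each ± 4.39. Over all 26 Kdr rows, centred, they were -6.88, -0.66 and 6.21 points, each ± 3.09, so that withdrawal minus standard changed sign. The adaptor Irs1 (11 rows) was at 8.17 to 15.1%, 7.80 to 18.3% and 9.56 to 18.2%, with differences from 0.99 to 2.27 points, each ± 2.07. Over the complete rows no limma adjusted p of these 3 genes was under 0.918. For Kdr over all its rows, centred, that of enriched minus standard was 0.816.

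**Figure D2:**
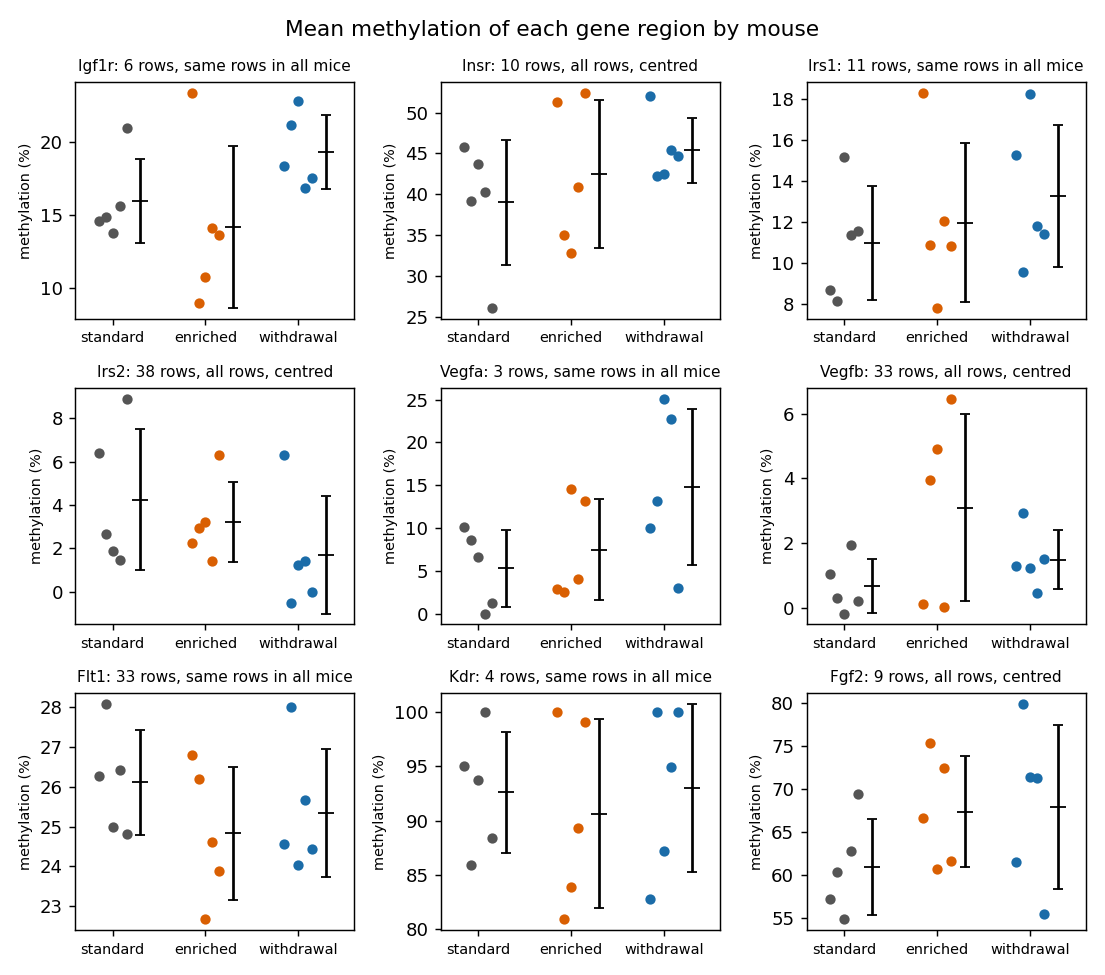
Mean methylation of each gene (percent, y axis, its own range in each panel and not starting at 0) in every mouse (points) by housing group (x axis, with 9 genes in as many panels), beside the group mean and SD over 5 mice. The groups overlap in all the panels, and the withdrawal mice 3 and 4 stand above the other animals for Vegfa. The 3 Vegfa rows lie within 1 stretch of 55 bases.

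For the genes without enough complete rows, each row was centred on its mean over the groups before averaging, which lets every row enter but leaves levels relative. Across 16146 gene regions treated this way 0 (0%) were called, and 6.04, 4.84 and 4.3% had an unadjusted p under 0.05 in the 3 comparisons. The Vegfb flank was at -0.18 to 1.94% in the standard mice, at 0.03 to 6.46% in the enriched and at 0.46 to 2.94% in the withdrawal mice; values under 0 come from the centring. Enriched mice 2, 3 and 5 lay above all other animals, and enriched minus standard was 2.43 ± 1.10 points (limma p 0.0583 unadjusted, 0.819 adjusted). The Kdr value over all its 26 rows was at 36.0, 36.8, 47.8, 52.0 and 49.3% in the standard mice against 33.6, 38.5, 39.4, 38.5 and 37.6% in the enriched mice. That difference was -6.88 ± 3.09 points (limma p 0.0439 unadjusted, 0.816 adjusted).

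Insr, Irs2 and Fgf2 also overlapped between the groups on this scale. The Insr groups averaged 39.0, 42.4 and 45.4% in the order standard, enriched and withdrawal, with SDs of 7.72, 9.08 and 3.98 over 5 mice each. Fgf2 averaged 60.9, 67.3 and 67.9% with SDs of 5.65, 6.47 and 9.54. Irs2 averaged 4.25, 3.23 and 1.69% with SDs of 3.25, 1.85 and 2.70. The lowest adjusted p of these 3 genes was 0.867.

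Single rows with the lowest p or with separated groups are given next by role, as a description of the extremes of 244 rows and not as calls. The Vegfa row chr17:46018577 on the minus strand lies 1584 bases from the far end of the gene. It is 6586 bases inside the nearest RefSeq start, which itself lies within the gene (promoter window chr17:46025164-46025413). The row was at 53.3, 100, 100 and 100% in 4 standard mice and at 67.7, 50 and 44.4% in 3 enriched mice. The 5 withdrawal mice were at 100, 100, 92.3, 96.3 and 94.1%, all above the enriched mice. Withdrawal minus enriched was 42.5 ± 10.5 points (limma p 0.00245 unadjusted, 0.922 adjusted). Enriched minus standard was -34.3 ± 11 points (adjusted p 0.892), and -45.9 points without standard mouse 1, the library with the fewest rows (adjusted p 0.126).

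The Fgf2 row chr3:37401984 on the plus strand, inside the gene, was at 0% in all 5 standard mice. The enriched mice were at 68.8, 0, 0 and 42.1%, and the withdrawal mice at 0, 82.6, 42.9, 14.9 and 34.7%. Methylation was thus seen in 2 of 4 and 4 of 5 animals with a value and in 0 of 5 standard mice. Withdrawal minus standard was 35 ± 15 points (limma p 0.0114 unadjusted, 0.911 adjusted), and 23.1 points without withdrawal mouse 2.

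In Kdr, the row with the lowest p of all members was chr5:75945613 on the minus strand, 32842 bases inside the start. It was at 100% in each of 3 standard mice and at 0, 71.4, 10 and 33.3% in 4 enriched mice. The withdrawal mice were at 100, 52.8, 100 and 96.4%. All enriched values lay under all standard values, while 3 of 4 withdrawal mice were at or near the standard level. Enriched minus standard was -71.3 ± 18 points (limma p 0.000463 unadjusted, 0.724 adjusted), and withdrawal minus enriched 58.6 ± 16.6 points (adjusted p 0.922).

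In Flt1, chr5:147646178 on the plus strand was at 31.6, 60.0, 82.1 and 0% in 4 standard mice, at 100, 100, 62.5 and 100% in 4 enriched mice and at 100, 97.5 and 100% in 3 withdrawal mice. The withdrawal values all lay above the standard values, by 55.7 ± 17.3 points on average (limma p 0.00275 unadjusted, 0.911 adjusted). Enriched minus standard was 47.2 ± 16.0 points (limma p 0.0049 unadjusted, 0.892 adjusted), and those 2 groups overlapped. At chr5:147723857, 2154 bases inside the start, the order was another: 17.1, 2.21, 0, 7.53 and 25% in the standard mice, 0, 5.88, 0, 0 and 0% in the enriched mice, and 7.59, 8.96, 17.6, 14.7 and 8.14% in the withdrawal mice. Withdrawal lay above enriched in all mice, by 10.2 ± 4.44 points (adjusted p 0.922). At chr5:147724008 the standard and enriched mice with a value were at 0%, and 2 of 3 withdrawal mice were at 12.1 and 18.2%. Withdrawal minus standard was 10.1 ± 3.74 points there (adjusted p 0.911), 6.06 without withdrawal mouse 5 and 15.2 without withdrawal mouse 3, which leaves that group 2 mice and was no call either.

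In Igf1r, 3 rows deep inside the gene had separated groups. The row chr7:67961442, minus strand, was at 5.88, 0, 7.69 and 26.7% in 4 standard mice, at 0% in 3 enriched mice and at 26.1, 25, 14.7, 28.4 and 30.4% in the withdrawal mice. Withdrawal minus enriched was 24.9 ± 6.67 points (limma p 0.00164 unadjusted, 0.922 adjusted). The row chr7:68147409, minus strand, was at 0, 0, 3.03, 9.68 and 0% in the standard mice and at 23.1, 15.2, 14.5, 12.4 and 13.3% in the withdrawal mice, with the enriched mice at 0 to 18.1%. That difference was 13.2 ± 3.92 points (adjusted p 0.911). The row chr7:68115479, plus strand, ran the other way: the 4 withdrawal mice with a value were at 0%, and the enriched mice at 15.4, 33.3, 100 and 29.0%. The 3 standard mice with a value were at 0, 0 and 91.7%. Withdrawal minus enriched was -44.4 ± 21.8 points (adjusted p 0.922), and -25.9 without enriched mouse 4.

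In Irs1, chr1:82245052 on the plus strand was at 33.3% in standard mouse 1 and 0% in the other standard mice. The enriched mice were at 50, 30, 57.1 and 6.06%, and the withdrawal mice at 0, 0, 15.6 and 0%. Enriched minus standard was 29.1 ± 10.2 points (limma p 0.00914 unadjusted, 0.892 adjusted), and 35.8 points without standard mouse 1 (adjusted p 0.556). No Irs2, Insr or Vegfb row was among the extremes.

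**Figure D3:**
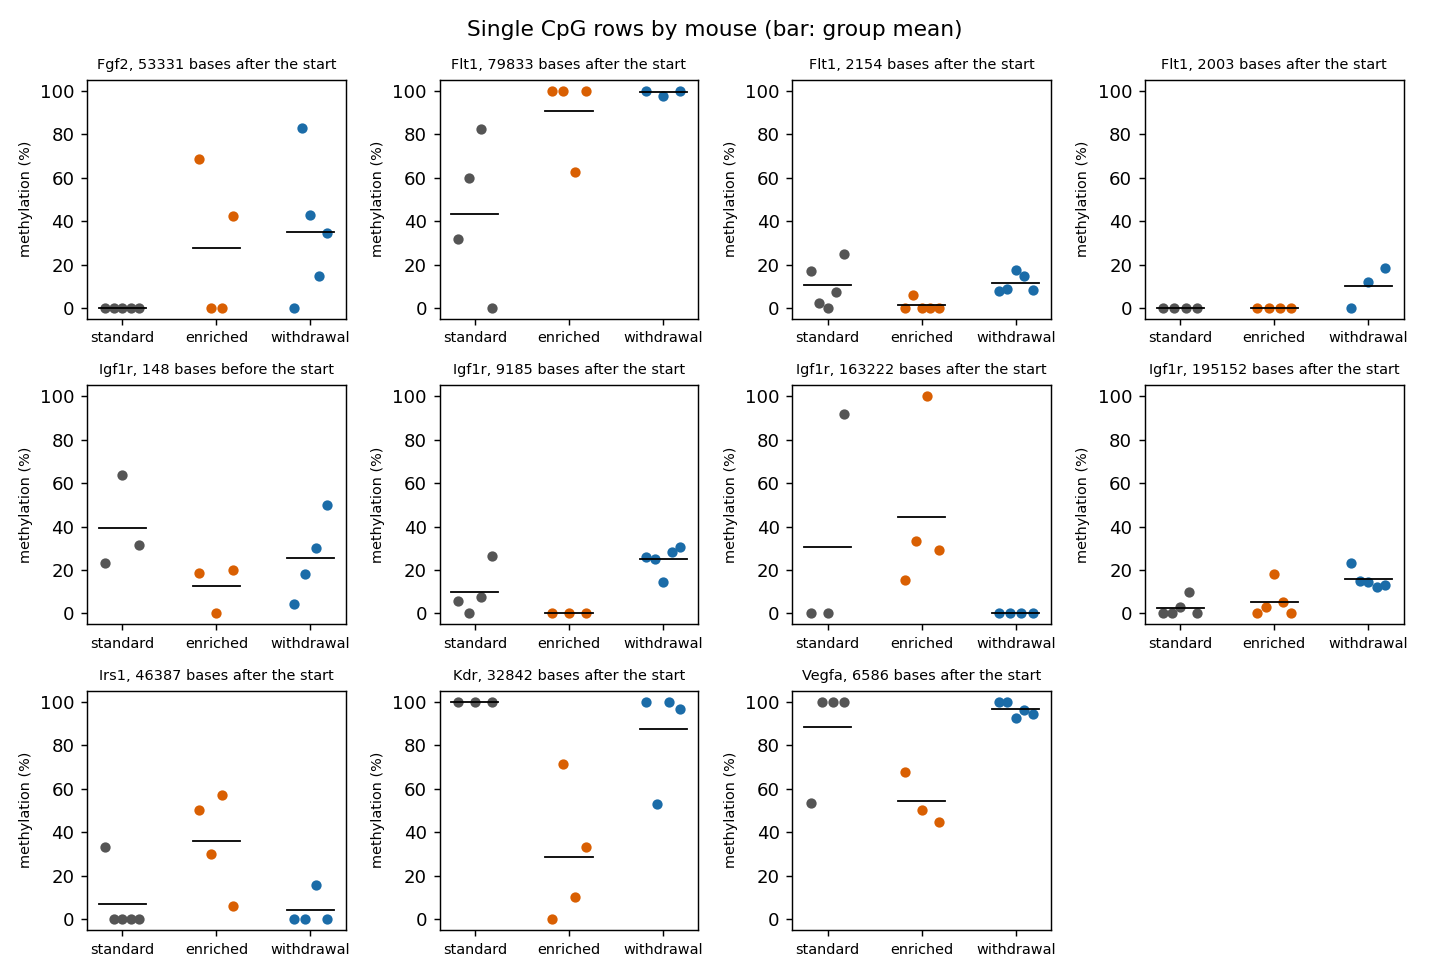
Methylation of the 11 single rows (percent, y axis) in each mouse with a value (points) by housing group (x axis), with a bar for the group mean. The Kdr row at 75945613 shows 3 standard mice at 100% against enriched mice from 0 to 71.4%, and most panels have fewer than 15 points because some mice had no value.

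Neighbouring rows of 1 strand at most 100 bases apart were also averaged into blocks of at least 3 rows, an addition made after the rows had been seen. Of 59774 blocks in the table, 2 (0.00335%) were called for enriched minus standard, 2 (0.00335%) for withdrawal minus standard and 3 (0.00502%) for withdrawal minus enriched, and 0 of the 44 member blocks. Of the member blocks, 3, 6 and 4 (6.82, 13.6 and 9.09%) had an unadjusted p under 0.05, beside 5.63, 5.05 and 4.98% of all blocks.

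The Flt1 start held 6 blocks, 4 of them with an unadjusted p under 0.05 in some comparison, and the group order differed among them. They were singled out after their values were seen. The block of the 3 capital CpGs in the Flt1 line above was at 0, 5.93, 0 and 0% in 4 standard mice, at 13.3, 7.94 and 3.33% in 3 enriched mice and at 7.69, 0, 5.41, 3.69 and 2.38% in the withdrawal mice. Enriched minus standard was 6.72 ± 2.53 points (limma p 0.0242 unadjusted, 0.872 adjusted). A block of 8 rows further out, chr5:147726838-147727158, was at 9.11, 7.71, 9 and 3.03% in 4 standard mice, 16.1, 11.1, 10.3 and 8.17% in 4 enriched mice and 0, 4.70, 3.93, 5.11 and 0% in the withdrawal mice. Here all withdrawal mice lay under all enriched mice, by 8.67 points on average (limma p 0.00294 unadjusted, 0.755 adjusted). Withdrawal minus standard was -4.46 ± 1.98 points (limma p 0.0460 unadjusted, 0.944 adjusted). The 3 rows of the opposite strand in the same stretch, chr5:147726871-147726915, averaged 5.03, 1.61 and 0.21% in the standard, enriched and withdrawal groups (limma p 0.0463 unadjusted for withdrawal minus standard). The standard mice were at 0, 1.67, 14.6 (mouse 4) and 3.81%, and the enriched mice at 0, 5.33, 0, 2.70 and 0%. The enriched mean lay under the standard mean on that strand and above it on the other, with limma unadjusted p of 0.187 and 0.184.

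On the inner side of the start, the block chr5:147725362-147725408 was at 21.2, 7.69, 22.2 and 0% in 4 standard mice and at 0% in 3 enriched and 5 withdrawal mice. Against standard housing, the limma p was 0.0078 unadjusted and 0.786 adjusted for the enriched group. For the withdrawal group it was 0.0035 unadjusted and 0.801 adjusted. The other 2 blocks had low means in every group: the 9 rows of chr5:147726588-147726663, complete in all mice, averaged 1.64, 1.39 and 1.17%, and the 11 rows of chr5:147725848-147725923 averaged 0.61, 1.20 and 2.28%. The mean over the 12 complete rows at the Flt1 start was 2.86, 3.66 and 1.52% in the standard, enriched and withdrawal groups. That mean had SDs of 2.09, 1.91 and 1.02 over 5 mice, and no adjusted p under 0.893. Of the 3433 gene starts tested, 0 (0%) passed for any pair of groups. The shares of starts whose unadjusted p was under 0.05 were 5.36, 5.1 and 5.33%, and neither Flt1 nor Irs1, the 2 members among them, was one.

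At Igf1r the block chr7:67961390-67961442, which ends in the row at 67961442 given above, was at 45.1, 29.8, 26.4 and 36.7% in 4 standard mice and at 32.9, 31.0 and 30.4% in 3 enriched mice. The withdrawal mice were at 59.4, 41.8, 39.5, 53.9 and 66.2%, all above the enriched mice, by 20.7 ± 8.33 points (limma p 0.0255 unadjusted, 0.964 adjusted). Inside Kdr there were 3 blocks beyond the start, none with an unadjusted p under 0.05. The 5 rows of chr5:75962628-75962673 were at 0, 3.72, 45.1 and 31.3% in 4 standard mice, 0 to 8.44% in the enriched and 1.18 to 28.0% in the withdrawal mice, so that the spread within the standard group exceeded the difference of 16.1 points between the means (adjusted p 0.909). The other 2 lie closer to the start, on opposite strands, and had their lowest mean in the standard group: chr5:75970770-75970966 averaged 66.3, 81.0 and 79.0% in the standard, enriched and withdrawal mice, and chr5:75970834-75970980 averaged 80.6, 83.4 and 91.3%.

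**Figure D4:**
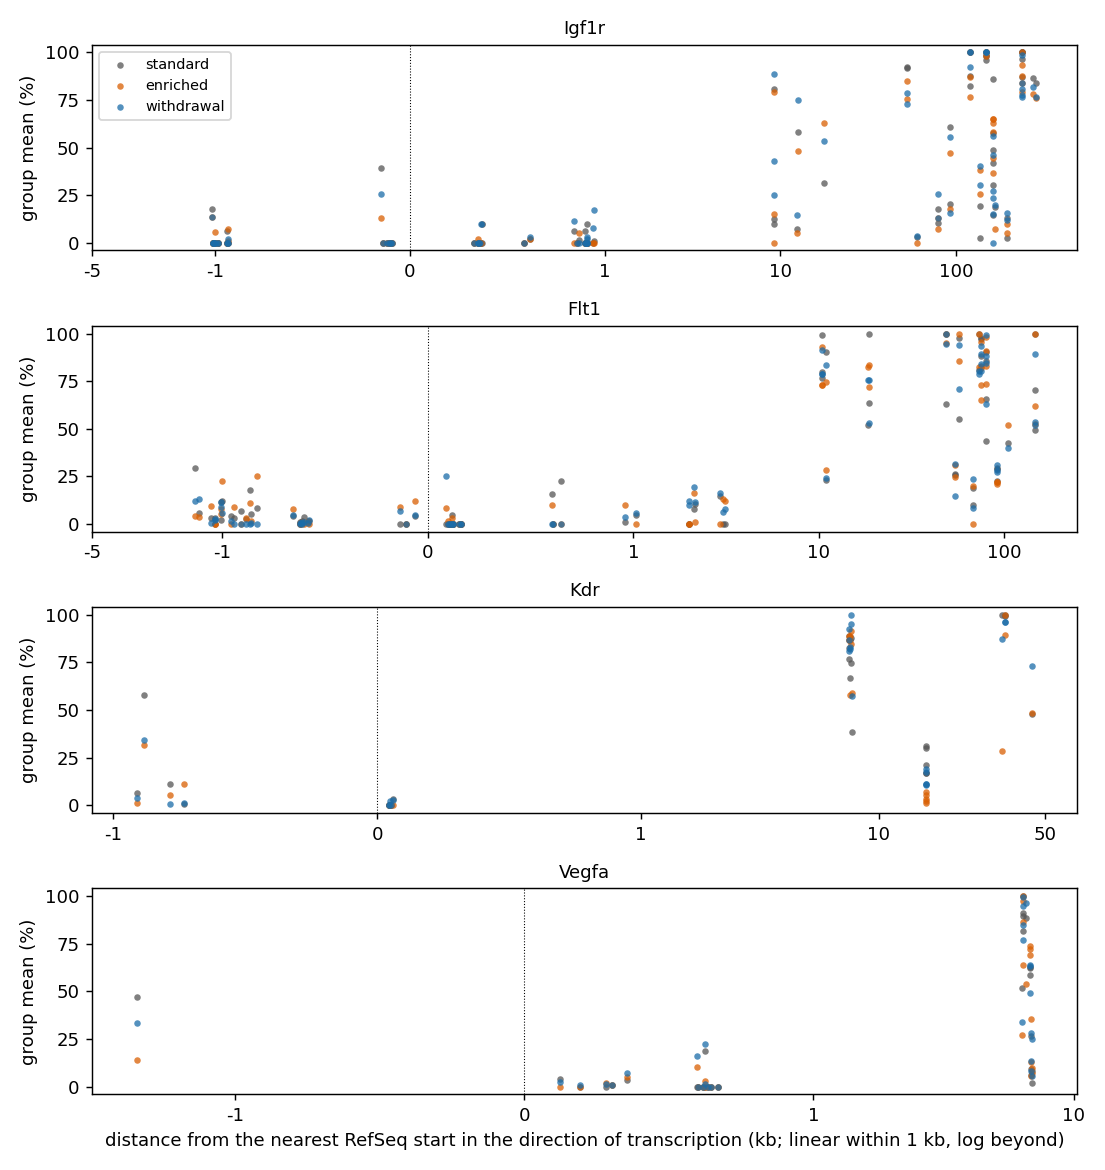
Mean methylation of each housing group (percent, y axis) at the measured rows of Igf1r, Flt1, Kdr and Vegfa, 1 point per group and row, against the distance from the nearest RefSeq start (x axis, kb, linear within 1 kb and logarithmic beyond). Most points lie near 0% around the starts and spread up to 100% further inside, and the Kdr row at 883 bases before the start shows the standard group above the other groups.

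Other genes of the same pathways, from fixed lists, had gene regions in 23 of 45 insulin and IGF genes, 13 of 26 VEGF, hypoxia and vessel genes and 20 of 25 FGF genes. Of these regions 0 were called in any comparison, as were 0 (0%) of all 9267 regions. At an unadjusted limma p under 0.05, enriched minus standard gave 1, 0 and 1 regions in the insulin, VEGF and FGF lists. Withdrawal minus standard gave 0, 2 and 1, and withdrawal minus enriched 0, 0 and 0. Over all gene regions the shares were 5.94, 5.13 and 4.61% in the same order of comparisons. The regions under that p are named as a description. The mean at Foxo1, a transcription factor restrained by insulin signalling, was 7.67% in standard and 2.42% in enriched mice (limma adjusted p 0.813). For withdrawal minus standard, Vegfd, a ligand of the VEGF family, was at 24.7 against 16.1% and the receptor gene Notch1 at 3.83 against 1.32% (adjusted p 0.952 and 0.968). Spred1, an inhibitor of FGF signalling to the MAP kinases, was at 0.81% under standard housing, at 3.20% after enrichment and at 3.31% after withdrawal (adjusted p 0.834 and 0.962 against standard). The median withdrawal minus standard difference was 0.29, 1.28 and 0.67 points in the insulin, VEGF and FGF lists, beside 0.31 points over all gene regions. For enriched minus standard the medians were 0.49, 0.43 and 0.19 points, beside 0.07. For withdrawal minus enriched they were 0.61, 1.12 and 0.74 points, beside 0.23.

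The gene whose mean over 15 mice moved most like that of Flt1 was Fbxo34, with a Pearson r of 0.80, followed by Tcf7 (0.77) and Arhgap20 (0.75), the highest of 2753 gene regions with at least 10 complete rows. These are the extremes of a large search over gene regions read in the same 15 libraries, and are given as a description.

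Markers of cell types could be read at few gene starts. Of 25 markers, 3 had at least 3 complete rows there: the granule neuron gene Prox1 at 4.36, 1.03 and 1.48% in the standard, enriched and withdrawal groups, and the astrocyte genes Slc1a3 (1.35, 1.59 and 1.94%) and Aldh1l1 (39.4, 30.7 and 30.2%). Prox1 had an unadjusted limma p of 0.00411 for enriched minus standard and an adjusted p of 0.804. No marker of endothelium, the cells in which Flt1 and Kdr are chiefly expressed, had a value, nor any of inhibitory neurons, oligodendrocytes or microglia, and the part of cell composition in the values above was not tested.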

How the data were processed

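The authors deposited 1 table of percent methylation, with a column for each of the 15 mice and no read counts. Per the submitters' processing notes, Trim Galore 0.4.0, cutadapt 1.8.1, Bismark 0.16.1 and methylKit 1.5.2 were used with the genome build mm10, which is GRCm38. The coverage minimum behind a value is not given in the sources used here. The table has 2918114 rows in 2 runs over the chromosomes. In RefSeq promoter windows, 47249 of 47249 rows of the first run fell on a CG and 0 of 134606 of the second, so the 455836 rows of the first run were used. Gene bounds and promoters came from RefSeq.

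Percent values were turned into log2((percent + 5)/(100 - percent + 5)) and fitted with limma 3.58.1 (R 4.3.3) with 3 group means, a variance trend and 2-sided tests, with Benjamini-Hochberg adjustment over all features of a kind. Mice without a value at a row were left out of its fit. A row was tested where each group had 3 or more mice with a value and the mice ranged over at least 5 points. Gene regions are the gene and 5 kb either side, and gene starts 1 kb either side, with at least 3 rows complete in 15 mice. Differences and standard errors are in percentage points. The standard errors come from a limma fit of the percent values, with the SD pooled over the groups and then moderated over all features of a kind. The fit was tested on simulated data.

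Single rows were named by rule: for each comparison the 4 member rows with the lowest p, rows whose groups did not overlap with means at least 10 points apart, each gene's lowest and highest row, and the rows at its start. The members and lists were chosen with earlier results of these data known. Centring all rows was set as a second way to average gene regions. Blocks, and centred values as the only values of genes with too few complete rows, were added after seeing the data. Mice are labelled as separate samples, so p-values measure the spread between them. Pairs of mice had identical values at 26.3 to 41.6% of complete rows, so none was deposited 2 times.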

Additional observations from a re-analysis of the deposited data

Results flagged for a closer look

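Single mice far from the rest of their group were found 9 times in 52 groups of values examined (27 of gene means and 25 of single rows with 4 or 5 mice), with Dixon's ratio of the gap to the group's range. The 8 groups of single rows with 3 mice were not examined. Chance flags about 1 in 20 groups, and a group of 4 or 5 mice in which all but 1 share the same value is always flagged.

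Among the gene means, Igf1r was at 20.97% in standard mouse 5, with the other standard mice at 13.8 to 15.7%. The centred Irs2 value was at 6.30% in withdrawal mouse 1, with the others at -0.50 to 1.44%.

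Among the single rows, the Irs1 row at 82245052 was at 33.3% in standard mouse 1 and at 15.6% in withdrawal mouse 4, with the rest of each group at 0%. The Vegfa row at 46018577 was at 53.3% in standard mouse 1, with the others at 100%. The Kdr row at 75945613 was at 52.8% in withdrawal mouse 3, with the others at 96.4 to 100%. The Flt1 row at 147646178 was at 62.5% in enriched mouse 4, with the others at 100%, and the Flt1 row at 147723857 was at 5.88% in enriched mouse 2, with the others at 0%. The Igf1r row at 68147409 was at 23.1% in withdrawal mouse 1, with the others at 12.4 to 15.2%.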

How the results depend on the processing

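No row or block of the 10 genes was called under any alternative run, and leaving out each mouse in turn gave 0 to 0 calls among them. Over the whole table, dropping the filter on the range gave 62, 56 and 65 called rows for enriched minus standard, withdrawal minus standard and withdrawal minus enriched, where 0 were called with it. Of these called rows, 0 in each comparison ranged under 5 points. All of them had thus also been tested with the filter and were not called there. Blocks of rows gave 2, 2 and 3 calls. Gene regions limited to the gene itself gave 1 call for each of the first 2 comparisons. For blocks, an offset of 1 point gave 5 and 6 calls for the first 2 comparisons, and the percent scale 0, 0 and 0. With the replicate block, blocks gave 0, 0 and 0 calls and gene starts 1 call each for enriched minus standard and withdrawal minus enriched. The labels do not say whether equal numbers link mice of different groups. Deviations of same-numbered mice correlated at -0.018 to 0.019, and of others at -0.024 to 0.028, so no pairing by number was seen in them. Leaving out 1 mouse gave 1 to 111, 0 to 119 and 1 to 118 called rows in the 3 comparisons, 0 to 4, 0 to 3 and 0 to 2 gene regions, 0 to 2, 0 to 1 and 0 to 1 gene starts, and 0 to 10, 1 to 19 and 0 to 7 blocks. The highest row counts came without enriched mouse 3 (111 for enriched minus standard) and withdrawal mouse 4 (119 and 118). The cause of these changes in counts was not tested.

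Some differences of gene means changed sign. Inside the gene only, Irs1 was at -0.98, -1.15 and -0.17 points in the 3 comparisons. Over all rows centred, enriched minus standard was -0.74 for Vegfa and 0.48 for Flt1, withdrawal minus standard -0.66 for Kdr and withdrawal minus enriched -1.04 for Flt1. Leaving out 1 mouse, enriched minus standard ranged from -0.59 to 2.03 for Irs1, -4.31 to 0.45 for Kdr and -1.79 to 0.14 for Irs2. Withdrawal minus standard ranged from -1.40 to 2.91 for Kdr, and withdrawal minus enriched from -0.088 to 4.89 for Kdr, -0.15 to 1.01 for Flt1 and -2.42 to 3.70 for Fgf2. No depth is given, so which single rows rest on few reads cannot be told.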
